A study of Mus musculus with 60 samples.

Results

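The comparison set the SA group against the NS group in RNA pulled down with tagged ribosomes (IP) from the medial prefrontal cortex (mPFC) of mice. It took the 6 SA and 6 NS IP libraries among 60 libraries, and every gene that a filter on low counts kept, which was 16670 of the 55414 genes in the deposited table. All 5 groups of the series were mice of the inbred strain DBA2/J that expressed GFP-L10a, a protein of the large ribosomal subunit with a fluorescent tag. The labels call the cells of the IP samples "aPVT projector", and Input samples are bulk mPFC RNA taken with no antibody. Per the series text, mice of the study met an aggressor over 5 days of social defeat, and the labels give SA, SA:ANH, ANH and RES as subtypes and NS with no such word. They do not spell these names out, do not say which groups were defeated, and give no age, sex or promoter or vector for the tag. They do not say that replicates were separate animals, so p-values measure the spread between libraries, which may be technical.

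Pulling on a tagged ribosomal protein brings down whole ribosomes with the mRNA they hold, so the IP is read as the RNA on ribosomes of cells that carry the tag. RNA of untagged cells, and RNA that is on no ribosome, can also come down with the beads. Neurons of the deep layers of this cortex send long axons to the thalamus and other subcortical targets, and the mPFC is studied for its part in the response to social stress.

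Library totals were 21137347 to 26084170 counts in SA IP and 19208056 to 26054339 in NS IP. Levels are given as CPM, that is, counts set to a common library size after scaling with TMM factors, and fold changes as log2 of SA over NS with the standard error of the model. Slc17a7, the vesicular glutamate transporter of cortical excitatory neurons, named after its value was seen, stood at 1573, 1709 and 1805 CPM in SA and 1848, 2014 and 2132 CPM in NS as the lowest, median and highest of 6 libraries, so the defining marker of such neurons was present in each library. The 18 inhibitory neuron markers that passed the filter were lower in IP than in Input of the other subtypes by a median of -3.61 on the log2 scale, the 19 astrocyte markers by -3.77 and the 20 oligodendrocyte markers by -3.08.

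Of the 16670 genes, 2766 (16.6%) differed between SA and NS in IP at an adjusted p under 0.05, 1566 of them higher in SA (9.39%) and 1200 lower (7.2%). Each count of list members in IP that follows is to be read beside these 9.39% and 7.2%. Counts in Input are to be read beside 1.23% higher and 1.6% lower of the 18170 genes tested there. Most differences were small. At least a 1.5-fold change was fitted for 331 of the genes higher and 297 of the genes lower, and at least a 4-fold change for 54 and 33. In 860 genes (5.16%) the lowest of 6 SA libraries exceeded the highest of 6 NS libraries and in 572 (3.43%) all lay below, together 1432 (8.59%). In the plot of level against fold change, genes of the ribosome and the respiratory chain lay above 0 at high levels. In bulk RNA, fewer cells of a type and less RNA per cell cannot be told apart, and this holds for each result that follows.

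**Figure D1:**
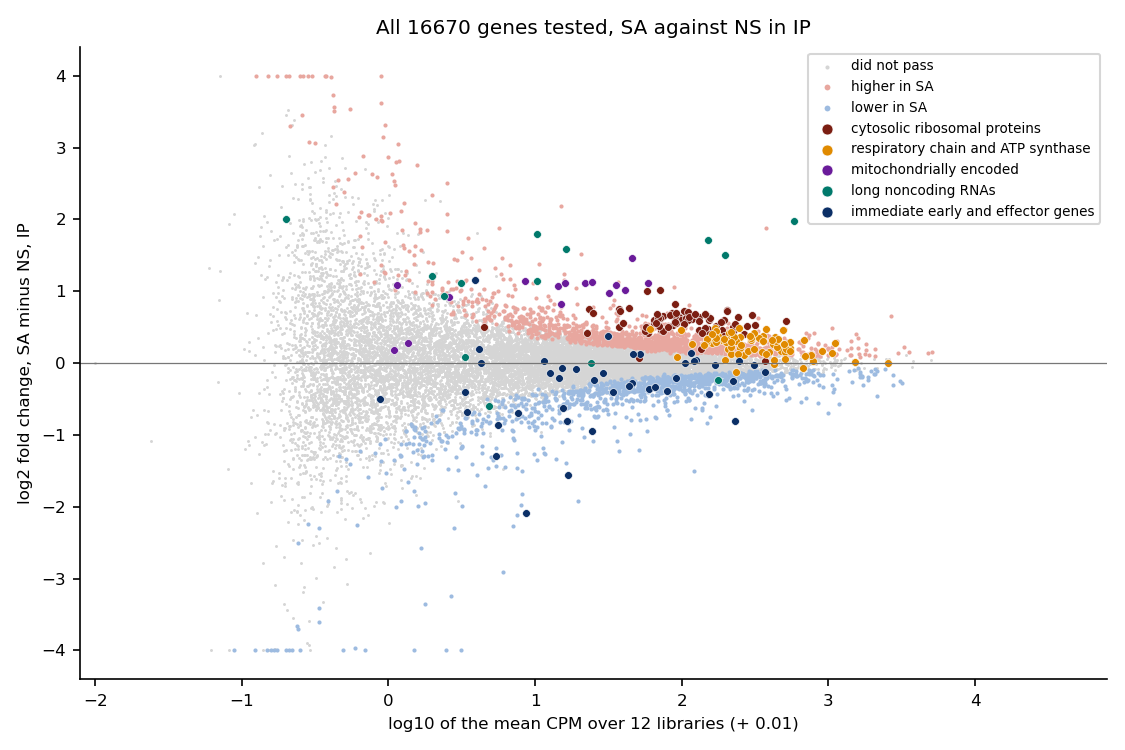
Fold change of each of the 16670 genes tested (vertical axis, log2 of SA over NS in IP, drawn at 4 or -4 where it was beyond) against its mean level (horizontal axis, log10 of the mean CPM of 12 libraries). Pale red and pale blue points passed at an adjusted p under 0.05, grey points did not, and dark points are members of the lists in the key; the ribosomal protein genes form a band at positive values.

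Genes for the proteins of the cytosolic ribosome were higher in SA as a class. All 33 genes of the small subunit passed, and 46 of 49 of the large subunit, with 0 lower, against 9.39% of all genes. The median log2 fold change was 0.56 for the small and 0.58 for the large subunit, beside 0.02 over all genes tested. Summed over the list, small subunit genes stood at 4636 to 5038 CPM in SA and 2916 to 3592 CPM in NS, and large subunit genes at 7939 to 8825 and 5214 to 6272 CPM, with no overlap. For single genes the SA libraries lay above every NS library in 32 of the 33 and 45 of the 49.

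mRNAs of this class commonly begin with a C and a run of pyrimidines, the 5′ terminal oligopyrimidine motif, through which growth signals set their translation. The stretches from 20 bases before to 20 bases from the annotated start are shown for the ribosomal protein genes with the smallest p, to let a reader see which carry such a run. They are the gene's own strand, 5′ to 3′, from RefSeq promoters on GRCm38.p6, and capitals mark the longest run of C and T.
Rps27, chr3:90213629-90213668, minus strand: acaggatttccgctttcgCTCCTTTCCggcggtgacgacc
Rps23, chr13:90923102-90923141, plus strand: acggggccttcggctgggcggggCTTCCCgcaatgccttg
Rps24, chr14:24490658-24490697, plus strand: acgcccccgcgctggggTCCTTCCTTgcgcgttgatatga
Rps19, chr7:24884893-24884932, plus strand: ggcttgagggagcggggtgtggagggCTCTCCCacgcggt
Rpl13, chr8:123102330-123102369, plus strand: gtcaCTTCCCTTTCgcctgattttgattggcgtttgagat
Rpl9, chr5:65391412-65391451, minus strand: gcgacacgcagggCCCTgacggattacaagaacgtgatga
Rpl23, chr11:97782420-97782459, minus strand: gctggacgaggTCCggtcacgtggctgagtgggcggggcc
The longest runs were 9 bases in Rps27 and Rps24 and 10 in Rpl13, and 4 and 3 in Rpl9 and Rpl23. Counted from the annotated start, those of Rps27 and Rps24 began at -2 and -3 and spanned it. Those of Rpl13, Rpl9 and Rpl23 began at -16, -7 and -9 and ended before it, so they lie outside the annotated transcript. In Rps23 and Rps19 the marked run began past the start, at 3 and 6.

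A promoter entry was matched by symbol for 61 of the 82 ribosomal protein genes (74.4%) and for 11687 of the 16670 genes tested. A run of C and T of at least 8 bases, searched on the gene's strand within 20 bases either side of the start, was found in 31 of those 61 (50.8%) and in 19.4% of the 11687. A run of A and G of the same length, which is the same motif on the opposite strand, was found in 5 of the 61 (8.2%) and in 19.5% of the 11687. With under 80% of the class matched, a comparison over it is void and the shares are a description only. Among all genes with a C and T run 10.5% rose and 8.59% fell, and among genes without one 10.1% rose and 6.83% fell.

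Rps27, a small subunit protein with a zinc finger, stood at 85.2, 97.9 and 103 CPM in SA and 42.9, 46.3 and 51.4 CPM in NS, given throughout as the lowest, median and highest of 6 libraries. The lowest SA library was above the highest NS library, and the log2 fold change was 1.02 ± 0.07 (adjusted p = 8.5e-13). Rps23, a protein of the decoding centre, stood at 98.7, 115 and 127 CPM in SA and 57.6, 66.1 and 70.5 CPM in NS (0.82 ± 0.06), again without overlap. Rps19, whose loss causes Diamond-Blackfan anaemia in people, stood at 227, 256 and 270.5 CPM in SA and 119, 157 and 173 CPM in NS. Its groups were also apart, at 0.72 ± 0.06, and Rps24, a small subunit protein linked to the same anaemia, differed by 0.64 ± 0.05.

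Of the large subunit, Rpl9 stood at 202, 258 and 283 CPM in SA and 136, 154 and 163 CPM in NS and differed by 0.73 ± 0.06. Rpl13 stood at 299.9, 382 and 407 CPM in SA and 206, 239 and 248 CPM in NS (0.68 ± 0.06, adjusted p = 1.0e-10), and Rpl23 differed by 0.60 ± 0.05. In each of these genes the SA libraries lay above every NS library. The 3 large subunit genes that did not pass were Rpl10a, Rpl22 and Rpl29, the last pair named after their values were seen. Rpl10a, which encodes the protein that carries the tag, stood at 304, 384 and 413 CPM in SA and 343, 371 and 378 CPM in NS, and its value was 0.03 ± 0.05 (adjusted p = 0.78) with overlapping groups. In Input it stood at 71.6, 74.1 and 80.7 CPM in SA and 70.3, 79.6 and 84.3 CPM in NS, well below its IP level. Reads of the native gene and of the tagged transgene cannot be told apart, and the part of the transgene in the IP level was not tested. Rpl22 was at 0.07 ± 0.09 and Rpl29 at 0.50 ± 0.21, both with overlap.

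In Input 0 of the 82 ribosomal protein genes passed in either direction at the same threshold. There 1.23% of 18170 genes tested were called higher, 1.6% lower and 2.83% in all, so 0 is near that share and not by itself a result about the class. The median Input log2 fold change was 0.08 for the small and 0.08 for the large subunit, beside -0.0009 over all genes tested there. Tested directly, the IP difference exceeded the Input difference in 32 of 33 and 45 of 49 genes, where 4.49% of 18938 genes were called in that direction, 4.55% in the other and 9.05% in all. Copies of these genes are spread through the genome as pseudogenes, and the counting rule for shared reads is not given. With the counts of pseudogenes named after a gene added to it, 79 of the 82 were higher and 1 was lower.

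Among 41 translation factors, 18 rose and 1 fell, with a median of 0.12. Eef1a1, the elongation factor that brings tRNA to the ribosome, stood at 1162, 1268 and 1339 CPM in SA and 983, 1017 and 1069.6 CPM in NS and its groups did not overlap (0.30 ± 0.03). Its exchange factor subunit Eef1g differed by 0.38 ± 0.05, and Eif2s2, a subunit of the factor that carries the initiator tRNA, by 0.54 ± 0.07. The member that fell was Eif4ebp2, a repressor of cap-dependent initiation named after its value was seen, at -0.44 ± 0.14, with overlapping libraries. The rises were fewer once a trend with gene size was removed, 11 for span and 13 for exonic length.

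Gas5 and Zfas1 are noncoding hosts of small nucleolar RNAs whose spliced transcripts start like those of ribosomal protein genes. A start of Gas5 is shown with that of Eef1a1 for that reason. Gas5 has 2 annotated starts, and the one with the longest run is printed.
Eef1a1, chr9:78481705-78481744, minus strand: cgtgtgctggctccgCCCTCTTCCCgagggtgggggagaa
Gas5, chr1:161035146-161035185, plus strand: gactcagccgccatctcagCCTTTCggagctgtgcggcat
Of 15 such host genes 5 rose (Gas5, Snhg4, Snhg12, Snhg20 and Zfas1), 0 fell, and the median was 0.49. Gas5 stood at 40.7, 43.1 and 47.3 CPM in SA and 22.9, 24.6 and 26.97 CPM in NS, with every SA library above every NS library (0.81 ± 0.07, adjusted p = 5.3e-10). Zfas1 stood at 9.17, 11.2 and 13.6 CPM in SA and 5.73, 7.503 and 8.16 CPM in NS and differed by 0.64 ± 0.13.

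**Figure D2:**
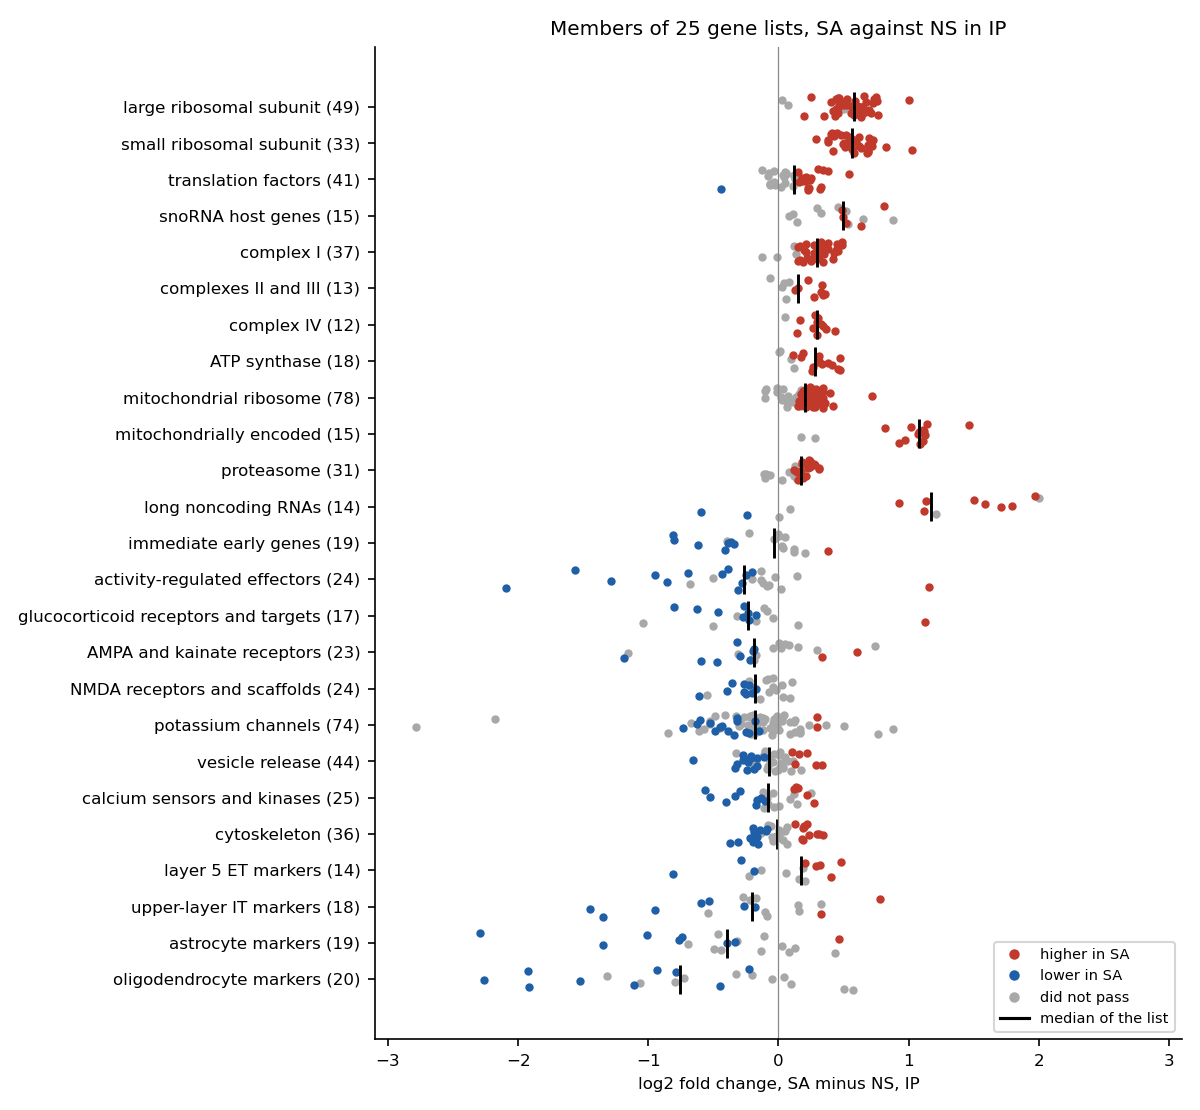
Log2 fold change of SA over NS in IP (horizontal axis) for each member of 25 gene lists that passed the filter, with the number of members in brackets; red points rose, blue points fell, grey points did not pass and the black bar is the median. Both ribosomal subunits sit at medians of 0.56 and 0.58, mitochondrially encoded genes at 1.08 and oligodendrocyte markers at -0.76.

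Genes of oxidative phosphorylation, the respiratory chain that makes most neuronal ATP, were higher in SA by less than the ribosomal genes. In complex I, which takes electrons from NADH, 33 of 37 nuclear genes rose, 0 fell, and the median was 0.29. In complexes II and III 8 of 13 rose, in complex IV 11 of 12 and in the ATP synthase 14 of 18. None were lower, as 0 passed in that direction, and the medians were 0.15, 0.30 and 0.28. With the trend with span removed, 28, 7, 8 and 11 rose from complex I to the ATP synthase, and 1 ATP synthase gene was lower. With that of exonic length removed, 26, 6, 8 and 13 rose and 0 were lower. The 12 libraries alone gave 1 complex I gene lower. Complex I genes summed to 10005 to 10666 CPM in SA and 7754 to 9211 CPM in NS.

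Ndufa6, an accessory subunit of complex I, stood at 191, 194 and 203 CPM in SA and 121, 139.7 and 160.5 CPM in NS. Its lowest SA library was above its highest NS library, at 0.49 ± 0.06 (adjusted p = 3.7e-07), and Ndufb7 of the same complex differed by 0.42 ± 0.05. Uqcrq of complex III stood at 455, 493 and 519 CPM in SA and 336, 379 and 419 CPM in NS (0.36 ± 0.05), and Sdhb, the iron-sulfur subunit of succinate dehydrogenase, differed by 0.22 ± 0.04. Cox4i1, a regulatory subunit of cytochrome c oxidase, stood at 1159, 1214 and 1304 CPM in SA and 910.2, 1007 and 1056 CPM in NS, which is a small but separate shift of 0.28 ± 0.04. Atpif1, the inhibitor of ATP hydrolysis by the ATP synthase, stood at 527, 567 and 612 CPM in SA and 361, 413 and 449 CPM in NS (0.45 ± 0.05), and Atp5g2, a ring subunit of that enzyme, differed by 0.47 ± 0.07.

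Proteins of the mitochondrial ribosome are also encoded in the nucleus, and 52 of their 78 genes rose with 0 lower, at a median of 0.21. Mrpl23 had the largest of these differences, 16.2 to 22.7 CPM in SA and 10.3 to 12.03 CPM in NS (0.72 ± 0.12). Of 31 proteasome genes 20 rose and 0 fell, with a median of 0.17. Psmb6, a catalytic chain of the core particle, stood at 314, 324 and 342 CPM in SA and 234, 265 and 284 CPM in NS and its groups did not overlap (0.31 ± 0.04). After removal of the trend with span or with exonic length, 32 and 33 mitochondrial ribosome genes and 14 and 11 proteasome genes rose, against 33 and 33 of the small cytosolic subunit and 45 and 45 of the large. The medians became 0.15 and 0.18 for the mitochondrial ribosome and 0.13 and 0.096 for the proteasome. Those of the small subunit became 0.51 and 0.51 and of the large 0.52 and 0.50, so they were lower as well and only the counts held.

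RNA made inside mitochondria was scarce in the IP and higher in SA. Mitochondrially encoded genes took 0.0379 to 0.0507% of the counts in SA IP and 0.0177 to 0.0237% in NS IP. Of 37 such genes that the table holds, 15 passed the filter and 13 of them rose, with a median of 1.08. mt-Rnr2, the large mitochondrial ribosomal RNA, stood at 53.6, 65.6 and 83.1 CPM in SA and 20.3, 22.5 and 30.99 CPM in NS (1.46 ± 0.15, adjusted p = 2.4e-09). The cytochrome c oxidase genes mt-Co1, mt-Co2 and mt-Co3 differed by 1.11 ± 0.11, 1.12 ± 0.12 and 1.12 ± 0.15, each without overlap. The genes mt-Nd3 and mt-Nd4l, named after their values were seen, were at about 1 CPM and did not pass (0.18 ± 0.58 and 0.28 ± 0.35). In the other subtypes these genes were lower in IP than in Input by a median of -5.15 on the log2 scale. Between SA and NS in Input, where 2.83% of all genes tested were called, 0 of the 15 differed, which is near that share. The part of RNA from outside the tagged ribosomes in the result was not tested.

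Long noncoding RNAs that stay largely in the nucleus were 6 of the 15 largest rises. Of 14 such genes 8 rose (Malat1, Meg3, Rian, Mirg, Miat, Kcnq1ot1, Snhg11 and Rmst) and 2 fell, and the median was 1.17. Malat1, an abundant RNA of nuclear speckles, stood at 810.1, 850.4 and 1193 CPM in SA and 223, 232 and 264 CPM in NS. The lowest SA library lay far above the highest NS library, and the log2 fold change was 1.97 ± 0.12 (adjusted p = 1.8e-14). Snhg11, a neuronal noncoding RNA, stood at 227, 229.99 and 239 CPM in SA and 64.98, 71.6 and 75.9 CPM in NS (1.71 ± 0.06), and Miat, a neuronal RNA with a nuclear speckle-like pattern of its own, at 20.4, 23.9 and 28.9 CPM in SA and 5.76, 7.62 and 11.99 CPM in NS (1.59 ± 0.16).

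Meg3, Rian and Mirg are maternally expressed neighbours in the imprinted region of chromosome 12. Meg3 stood at 269, 292 and 319 CPM in SA and 96.1, 105 and 107 CPM in NS, groups far apart and tight, with a difference of 1.503 ± 0.05 (adjusted p = 8.0e-22). Rian stood at 12.2 to 16.6 CPM in SA and 5.4002 to 7.604 CPM in NS (1.14 ± 0.14), and Mirg, named after its value was seen, at 1.81 to 4.08 CPM in SA and 0.98 to 2.11 CPM in NS with overlapping libraries (0.93 ± 0.31). Mirg did not pass when no filter on low counts was used (adjusted p = 0.1). On chromosome 7, in another imprinted region, Kcnq1ot1 and Cdkn1c both rose. Kcnq1ot1, the paternally expressed RNA that silences its neighbours, stood at 13.5, 16.4 and 18.1 CPM in SA and 2.54, 4.84 and 6.47 CPM in NS (1.79 ± 0.20). Cdkn1c, a maternally expressed inhibitor of cyclin-dependent kinases in that domain, stood at 25.8, 31.2 and 32.7 CPM in SA and 8.29, 10.97 and 11.3 CPM in NS (1.52 ± 0.11). The SA libraries lay above the NS libraries in both. Kcnq1ot1 runs antisense to Kcnq1, and the strand setting of the counts is not given.

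The members that fell were Pvt1 (-0.60 ± 0.20, overlapping groups) and Peg13 (-0.24 ± 0.06, groups apart), both named after their values were seen, and Pvt1 did not pass with the 12 libraries alone (adjusted p = 0.051). In Input, Meg3, Snhg11 and Miat also rose, at 0.34 ± 0.04, 0.30 ± 0.03 and 0.46 ± 0.06, and their IP differences were larger (adjusted p for the difference = 1.9e-22, 2.8e-24 and 3.1e-06). Malat1 was at -0.19 ± 0.09 in Input (adjusted p = 0.29), and its IP and Input differences were unlike (adjusted p = 8.9e-16). Over all classes of gene, 89 of 1419 long noncoding RNA genes rose and 21 fell, and of 846 processed pseudogenes 22 rose and 83 fell. Beside 9.39% higher and 7.2% lower over all genes, both shares were below for long noncoding RNA genes as a class, and for processed pseudogenes the share that rose was below and the share that fell above. How much nuclear RNA came down with the beads in each library was not tested.

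**Figure D3:**
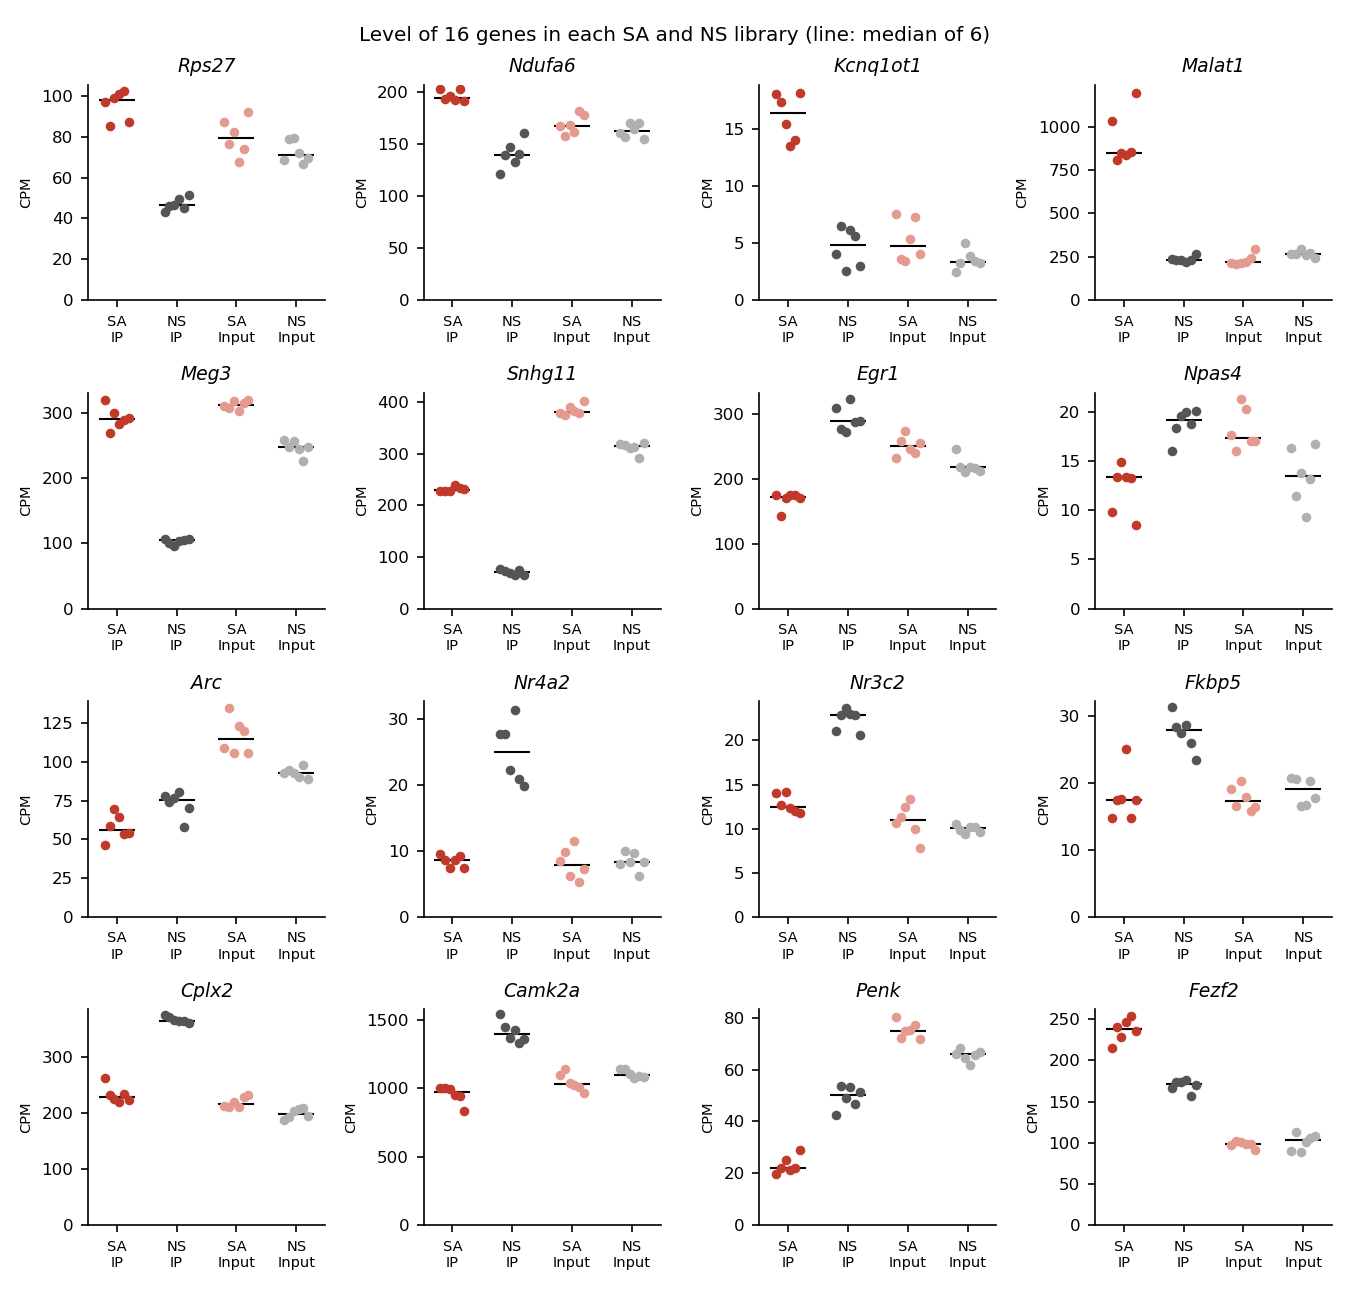
CPM of 16 genes (vertical axes, from 0) in each of the 6 libraries of SA IP, NS IP, SA Input and NS Input; each point is a library and each line the median of 6. Malat1 stands apart in SA IP, and NS IP is the lowest group for Meg3 and Snhg11. Egr1 is lower in SA IP than in NS IP (medians 172 against 289 CPM), and the same gene is higher in SA than in NS in Input.

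Outside those RNAs, Cdkn1c and the mitochondrial genes, the largest rises in that ranking were 1 receptor and 2 blood genes. Ptger3, a receptor for prostaglandin E2, stood at 11.1, 13.3 and 16.1 CPM in SA and 4.33, 6.08 and 7.9003 CPM in NS, with groups apart (1.12 ± 0.19). Hba-a1 and Hbb-bs, haemoglobin chains of red cells, stood at 18.9 to 26.3 CPM in SA and 6.78 to 11.7 CPM in NS and at 14.5 to 16.6 CPM in SA and 4.84 to 7.83 CPM in NS (1.24 ± 0.12 and 1.37 ± 0.16). Of 5 blood markers 4 rose in IP (Hba-a1, Hba-a2, Hbb-bs and Alas2) and all 5 rose in Input. Hba-a1 and Hba-a2 are near-identical copies, so the split of reads between them is uncertain.

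In the same ranking of genes with a mean of at least 10 CPM in the higher group, the largest falls were single genes of several kinds. Il16, which encodes a cytokine precursor with a neuronal form, stood at 0.761, 1.49 and 2.01 CPM in SA and 7.16, 10.2 and 14.3 CPM in NS. Every SA library was below the lowest NS library, at -2.91 ± 0.26 (adjusted p = 2.8e-10). Lats2, a kinase of the Hippo pathway, stood at 0.979, 2.88 and 4.13 CPM in SA and 9.68, 12.3 and 14.5 CPM in NS (-2.12 ± 0.25). Htr7, a serotonin receptor coupled to cAMP, stood at 1.88, 3.002 and 6.08 CPM in SA and 9.86, 13.1 and 15.2 CPM in NS (-1.98 ± 0.25), and groups were apart in both. Zbtb20, a transcription factor of cortical and hippocampal neurons and of astrocytes, stood at 6.42, 7.37 and 11.5 CPM in SA and 28.7, 30.96 and 35.4 CPM in NS (-1.92 ± 0.13). Wipf3, a WASP-interacting protein of the actin machinery, stood at 56.5, 63.5 and 70.7 CPM in SA and 158, 183 and 201 CPM in NS (-1.504 ± 0.09, adjusted p = 1.8e-14). Trf, transferrin, a gene of oligodendrocytes, fell by 2.26 ± 0.25 on the log2 scale, and Slc4a4, a bicarbonate transporter of astrocytes, by 1.35 ± 0.20.

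Immediate early genes, whose transcription follows synaptic activity within minutes, fell more often than they rose in IP. Of 19 that passed the filter, of 23 in the table, 7 fell, 1 rose and the median was -0.03, with 7.2% of all genes lower. Egr1, a zinc finger transcription factor, stood at 143, 172 and 176 CPM in SA and 272, 289 and 324 CPM in NS. All 6 SA libraries were below all 6 NS libraries, at -0.80 ± 0.05 (adjusted p = 6.2e-14). Npas4, a neuron-specific activity factor, stood at 8.56, 13.4 and 14.9 CPM in SA and 16.1, 19.2 and 20.2 CPM in NS with groups apart (-0.62 ± 0.18), and Arc, which acts in AMPA receptor uptake, at 46.1, 56.4 and 69.7 CPM in SA and 57.99, 75.4 and 80.9 CPM in NS with overlap (-0.34 ± 0.10). Egr3, Egr4 and Fosl2, related transcription factors, differed by -0.37 ± 0.08, -0.39 ± 0.08 and -0.81 ± 0.18. The member that rose was Klf10, at 0.38 ± 0.13 with overlap, and it did not pass with the 12 libraries alone (adjusted p = 0.051). Fos was at -0.23 ± 0.11 (adjusted p = 0.18). Npas4, Arc and Klf10 were named after their values were seen.

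Bulk tissue went the other way for several of these genes. In Input 7 of the 19 rose and 0 fell, among them Egr1 (0.19 ± 0.04), Egr4 (0.22 ± 0.06), Arc (0.32 ± 0.06) and Npas4 (0.44 ± 0.12). The IP and Input differences were unlike in 8 of the 19, each lower in IP, with an adjusted p of 7.7e-19 for Egr1, 0.00031 for Npas4, 6.9e-05 for Arc and 5.4e-06 for Egr4. Fos, which passed in neither fraction, also differed between them (adjusted p = 0.0085). Over all genes tested in both fractions, 42 fell in IP and rose in Input, 14 rose in IP and fell in Input, 42 rose in both and 63 fell in both.

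Later genes of the activity response fell as well, 12 of 24 with 1 rise and a median of -0.27. Nr4a2, an orphan nuclear receptor, stood at 7.37, 8.6001 and 9.58 CPM in SA and 19.9, 24.95 and 31.5 CPM in NS, with groups apart (-1.56 ± 0.17). Rasd1, a small GTPase that glucocorticoids also induce, stood at 2.48, 3.37 and 3.98 CPM in SA and 10.8, 14.2 and 17.1 CPM in NS (-2.09 ± 0.20), and Inhba, the activin A chain, at 13.2, 17.6 and 19.6 CPM in SA and 29.5, 32.8 and 34.99 CPM in NS (-0.95 ± 0.10). Vgf, a secreted neuropeptide precursor, differed by -0.44 ± 0.06 and Bdnf, the neurotrophin, by -0.39 ± 0.06, both without overlap. Bdnf and Rasd1 were lower in Input too (-0.36 ± 0.09 and -0.72 ± 0.14). Tiparp, a poly(ADP-ribose) polymerase named after its value was seen, was the member that rose (1.15 ± 0.29), with overlapping groups.

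A list of receptors and targets of glucocorticoids, the adrenal stress hormones, showed 8 falls and 1 rise among 17 genes, with a median of -0.24. It also holds the enzyme gene Hsd11b1, and Crh, Crhr1 and Crhbp of the corticotropin-releasing hormone system, so its counts are not those of glucocorticoid receptors and targets alone. Nr3c2, the mineralocorticoid receptor, stood at 11.7, 12.5 and 14.2 CPM in SA and 20.6, 22.9 and 23.7 CPM in NS. Its groups were apart, at -0.80 ± 0.10 (adjusted p = 1.1e-07). Nr3c1, the glucocorticoid receptor, named after its value was seen, differed by -0.27 ± 0.07 with overlap. Fkbp5, a co-chaperone of that receptor and one of its targets, stood at 14.8, 17.5 and 25.1 CPM in SA and 23.5, 28.03 and 31.5 CPM in NS with overlap (-0.63 ± 0.14), and Sgk1, a kinase target, at 24.8, 29.8 and 37.1 CPM in SA and 38.4, 41.95 and 45.1 CPM in NS without (-0.47 ± 0.09). Hsd11b1, the enzyme that regenerates active hormone, named after its value was seen, was the member that rose (1.13 ± 0.34), with overlap. In Input, where 2.83% of all genes tested were called, 0 of the 17 passed, which is near that share and not a result about the list.

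Of 19 clock genes 4 rose (Dbp, Ciart, Bhlhe40 and Rorb) and 3 fell (Npas2, Tef and Rora). Those are 21.1% and 15.8%, beside 9.39% and 7.2% of all genes. Dbp, an output factor of the clock, stood at 86.8, 89.8 and 97.5 CPM in SA and 62.7, 67.1 and 72.9 CPM in NS and differed by 0.42 ± 0.05 in IP and 0.41 ± 0.05 in Input. Bhlhe40, a repressor of the clock that activity also induces, differed by 0.42 ± 0.06 and 0.38 ± 0.05. The test of the difference between fractions passed for neither gene (adjusted p = 0.95 and 0.94). In Input 7 of the 19 rose, where 1.23% of all genes tested rose. Npas2, a partner of Bmal1, stood at 21.4, 26.8 and 32.8 CPM in SA and 39.8, 43.7 and 47.7 CPM in NS in IP (-0.70 ± 0.10) and was at 0.06 ± 0.08 in Input (adjusted p for the difference = 1.2e-05). Times of tissue collection are not given in the labels.

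Genes of the excitatory synapse leaned lower. Of 23 AMPA and kainate receptor genes and their auxiliary subunits 8 fell and 2 rose (Cacng4 and Cnih3), with a median of -0.18. Gria1, a pore subunit of AMPA receptors, stood at 431, 448 and 475 CPM in SA and 523, 555 and 609 CPM in NS (-0.32 ± 0.04). The auxiliary subunit Cnih2 differed by -0.29 ± 0.04 and its relative Cnih3 by 0.34 ± 0.05, both with groups apart and in opposite directions, and the auxiliary subunit Gsg1l by -0.47 ± 0.07. Of 24 NMDA receptor and scaffold genes 9 fell and 0 rose. Shank1, a scaffold of the postsynaptic density, stood at 252, 287 and 324 CPM in SA and 358, 371 and 433 CPM in NS (-0.39 ± 0.06). Without the trend with span or exonic length 6 and 7 of the 24 fell. Other receptor lists held fewer called genes, with 1 of 7 metabotropic glutamate receptors lower (Grm4). Of 14 GABA receptor subunits 2 were higher (Gabra2 and Gabrg3) and 2 lower (Gabra3 and Gabrd). Of 32 monoamine and acetylcholine receptor genes 5 were lower (Htr7, Adra2a, Chrm1, Chrm2 and Chrm3). The GABA receptor rises were 0 with RLE factors or no filter. The monoamine and acetylcholine falls were 3 with no filter or without the trend with exonic length. With 9.39% of all genes higher and 7.2% lower, the metabotropic and GABA counts are too small to be results about those lists.

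Of 74 potassium channel genes that passed, of 92 in the table, 15 fell and 2 rose (Kcnh7 and Kcnmb4), with a median of -0.18. Kcna1, a channel of axons that limits repetitive firing, stood at 84.98, 86.8 and 94.4 CPM in SA and 115, 127 and 136 CPM in NS. Its groups were apart (-0.53 ± 0.06), as were those of Kcnv1, a silent subunit that modifies other channels, at -0.49 ± 0.06. Kcnmb4, the neuronal beta subunit of the calcium-activated BK channel, stood at 121, 131 and 138 CPM in SA and 94.5, 105 and 117 CPM in NS (0.30 ± 0.05). Of 29 sodium, calcium and HCN channel genes 1 rose (Cacna1g) and 3 fell, among them Cacnb2 and Hcn2, which is 3.45% and 10.3% beside 9.39% and 7.2% of all genes and is not a result about the list.

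In the presynaptic terminal 14 of 44 genes of vesicle release fell and 6 rose (Syn2, Syt4, Syt5, Rab3a, Rab3b and Rab3c). Cplx2, a complexin that clamps and promotes vesicle fusion, stood at 219, 229 and 263 CPM in SA and 359.7, 365 and 376 CPM in NS. All SA libraries were below all NS libraries, at -0.66 ± 0.05 (adjusted p = 3.3e-12), while Input was at 0.14 ± 0.05. Snap25, a SNARE of the plasma membrane, stood at 2740.4, 2847 and 3083 CPM in SA and 3306, 3455 and 3650.5 CPM in NS and was lower by like amounts in IP (-0.27 ± 0.03) and Input (-0.25 ± 0.03). Dnm1, the dynamin of vesicle uptake, differed by -0.33 ± 0.04, and Slc17a7 by -0.24 ± 0.05.

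Among 25 calcium sensors and calcium-dependent enzymes 9 fell and 5 rose, where 3 rose with RLE factors or with no filter on low counts. Camk2a, the alpha subunit of CaM kinase II, stood at 834, 974 and 1006 CPM in SA and 1331, 1399 and 1544 CPM in NS, with groups apart (-0.57 ± 0.05). Camkk2, an upstream kinase, stood at 199, 213 and 238 CPM in SA and 292, 309 and 334 CPM in NS (-0.53 ± 0.06) and was slightly higher in Input (0.14 ± 0.04). Hpca, the calcium sensor hippocalcin, stood at 859.5, 948 and 979.5 CPM in SA and 1212, 1231 and 1255 CPM in NS (-0.40 ± 0.03). Among the 5 that rose were Camk4 and Hpcal1.

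The cytoskeleton list split, with 11 of 36 genes higher and 12 lower. Stathmins, which bind free tubulin, rose: Stmn1 stood at 1379.7, 1591 and 1678 CPM in SA and 1218, 1271 and 1316 CPM in NS, Stmn2 differed by 0.30 ± 0.03 and Stmn3 by 0.35 ± 0.04. Tuba1a, the main alpha-tubulin of young neurons, stood at 3239, 3584 and 3656 CPM in SA and 2916, 3001 and 3143 CPM in NS (0.22 ± 0.03). Long structural proteins were among those that fell, with the spectrins Sptan1 and Sptbn1, the microtubule proteins Map1a, Map1b and Map2, and the motor heavy chains Kif5a and Kif5c. Of 35 chaperone genes 4 rose (Hsp90aa1, Hspe1, Cct2 and Cct8) and 8 fell. That is 11.4% and 22.9%, beside 9.39% and 7.2% of all genes. Hsp90aa1, a cytosolic Hsp90, differed by 0.27 ± 0.04 in IP and -0.20 ± 0.03 in Input, and the stress-induced Hspa1a by -0.54 ± 0.11 in IP. Hspa1a has the near-identical copy Hspa1b, so reads may be split between them.

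Short genes rose more often than long ones. Of genes with a deposited length under 1 kb 19.8% rose and 3.61% fell, of those of 1 to 2 kb 16.7% and 3.95%, of those of 5 to 8 kb 4.41% and 9.54%, and of those of 8 kb and over 7.38% and 9.19%, so the rises were not fewest in the longest class. By span, which includes introns, 14.4% of genes under 5 kb rose and 4.95% fell, against 7.15% and 14.3% of genes of 200 kb and over. The median deposited length was 1939 bases among genes that rose, 3863 among those that fell and 3158 among the rest. Called genes were also more abundant, at a median of 66.6 CPM for those that rose, 66.7 for those that fell and 9.61 for those not called. With the trend removed per library, 1340 rose and 1254 fell for span, and 1276 and 1218 for exonic length. The part of RNA length in the single results was not otherwise tested.

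**Figure D4:**
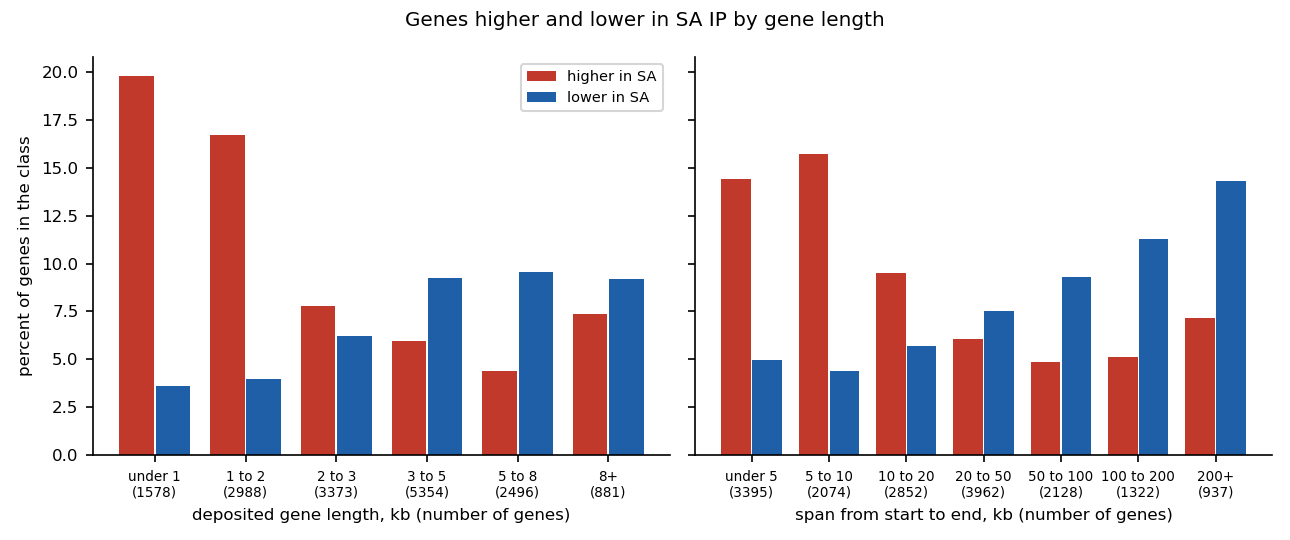
Percent of genes that rose (red) and fell (blue) in SA IP at an adjusted p under 0.05 (vertical axis), in classes of deposited gene length (left) and of the span from gene start to end (right), in kb, with the number of genes in brackets. Rises reached 19.8% in the shortest class of length and 4.41% at 5 to 8 kb, while falls reached 14.3% in the class with the longest span.

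Markers of the projecting layers moved in part. Of 14 markers of layer 5 extratelencephalic neurons, the cells with long subcortical axons, 5 rose (Fezf2, Crym, Pou3f1, Parm1 and Tox). Another 3 fell (Bcl11b, Nefm and Sulf1), which makes 35.7% and 21.4% beside 9.39% and 7.2% of all genes. Fezf2, the factor that sets this identity in development, stood at 216, 238 and 254 CPM in SA and 157, 172 and 176 CPM in NS, with groups apart (0.48 ± 0.05). Pou3f1 and Parm1, a transcription factor and a membrane protein of these cells, differed by 0.32 ± 0.06 and 0.29 ± 0.06. Of 18 markers of upper-layer or intratelencephalic neurons, not all of them confined to the upper layers, 7 fell and 2 rose (Rorb and Etv1). Calb1, a calcium buffer, stood at 55.2, 59.7 and 74.3 CPM in SA and 86.2, 93.5 and 101 CPM in NS (-0.60 ± 0.07). Lhx2 differed by -0.53 ± 0.07 and Mdga1 by -1.45 ± 0.21. Of 15 layer 6 corticothalamic markers 5 fell (Rprm, Sla, Nfia, Hs3st4 and Trpm3) and 1 rose (Crym). In the other subtypes the layer 6 markers were lower in IP than in Input by a median of -1.43 on the log2 scale, while the layer 5 markers were at 0.42. The part of RNA from untagged cells in the layer 6 values was not tested. Trpm3, a cation channel, differed by -1.34 ± 0.17, and Rorb, which is also a clock gene, by 0.78 ± 0.18.

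Neuropeptides split evenly, with 3 of 18 higher (Cck, Adcyap1 and Grp) and 3 lower (Sst, Penk and Nts). Each count is 16.7% of the list, beside 9.39% higher and 7.2% lower over all genes. Penk, the enkephalin precursor, stood at 19.8, 22.2 and 28.9 CPM in SA and 42.3, 50.2 and 53.5 CPM in NS. No SA library reached the lowest NS library (-1.09 ± 0.08, adjusted p = 9.5e-12), while Input was at 0.20 ± 0.06. Grp, gastrin-releasing peptide, stood at 38.9, 45.1 and 50.3 CPM in SA and 19.01, 23.9 and 30.01 CPM in NS (0.87 ± 0.10), and Cck, cholecystokinin, differed by 0.20 ± 0.04. Sst, which marks a class of inhibitory neurons, stood at 12.98, 14.4 and 16.8 CPM in SA and 24.5, 27.8 and 29.5 CPM in NS (-0.91 ± 0.08). Gap43, a growth cone protein, stood at 1173, 1249 and 1281 CPM in SA and 836, 896 and 916 CPM in NS (0.49 ± 0.03), Olfm1, a secreted synaptic protein, at 2379, 2464 and 2508 CPM in SA and 2915, 3027 and 3096 CPM in NS (-0.30 ± 0.02), and Nptx1, a neuronal pentraxin, at 106, 119.5 and 122 CPM in SA and 184, 196 and 212 CPM in NS (-0.75 ± 0.05). Ppp1r1b, the dopamine-regulated phosphatase inhibitor, fell in IP (-0.72 ± 0.06) and rose in Input (0.27 ± 0.05, adjusted p for the difference = 8.9e-16).

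Markers of cells that the pulldown should leave behind were low and differed between the groups. Oligodendrocyte markers summed to 237 to 254 CPM in SA and 281 to 327 CPM in NS, with 9 of 20 lower and 0 higher, while in Input 9 rose and 0 fell. With the 12 libraries alone 4 of the 20 were called lower in IP. Trf stood at 0.914, 2.35 and 4.85 CPM in SA and 9.68, 11.3 and 14.8 CPM in NS, Mbp, myelin basic protein, differed by -0.22 ± 0.05, and Mog, another myelin protein, which was at 0 in at least 1 SA library, by -1.93 ± 0.44. Astrocyte markers summed to 352 to 400.1 and 439 to 467 CPM, with 7 of 19 lower and 1 higher (S100b). Gfap, the astrocyte filament, stood at 0.522, 0.924 and 1.44 CPM in SA and 2.65, 4.81 and 7.02 CPM in NS (-2.29 ± 0.35), and it was lower in Input as well (-0.75 ± 0.05).

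Inhibitory neuron markers summed to 94.5 to 111 CPM in SA and 116 to 149 CPM in NS, with 3 of 18 lower (Gad1, Gad2 and Sst). Gad1, a GABA synthesising enzyme, stood at 4.39, 6.57 and 8.92 CPM in SA and 12.7, 13.99 and 21.6 CPM in NS (-1.25 ± 0.21). Blood markers went up, from 14.4 to 23.2 CPM in NS to 38.2 to 50.9 CPM in SA. Microglial sums overlapped, at 38.1 to 42.3 and 34.6 to 47.2 CPM with 1 of 14 higher (Aif1), and so did vascular sums, at 24.6 to 32.2 and 18.1 to 26.7 CPM with 3 of 14 higher (Ly6c1, Tek and Acta2), which was 1 with no filter on low counts. The part of RNA from these cells in the falls and rises given above was not tested.

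**Figure D5:**
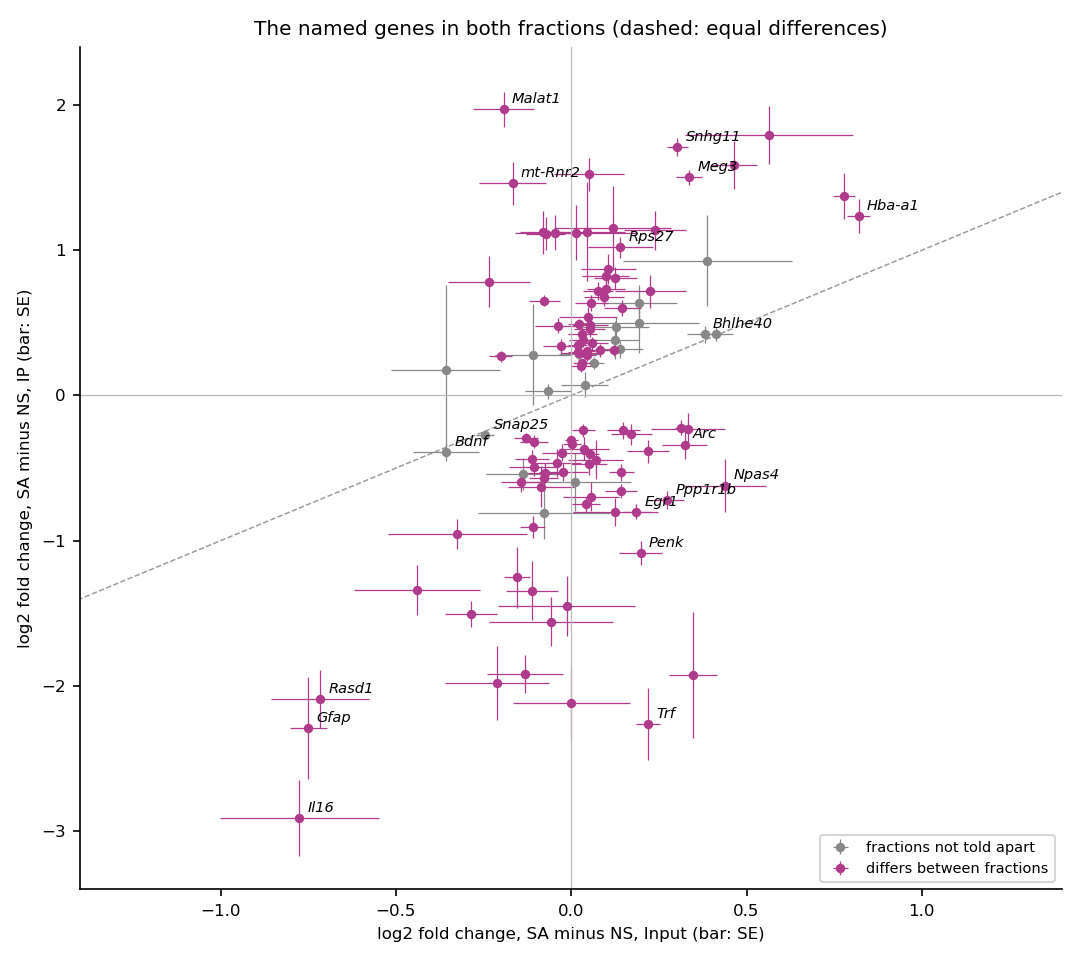
Log2 fold change of SA over NS in IP (vertical axis) against that in Input (horizontal axis) for the genes described, with standard errors as bars; purple points differed between the fractions at an adjusted p under 0.05 and the dashed line marks equal differences. Egr1, Npas4, Arc, Penk and Ppp1r1b lie below 0 in IP and above 0 in Input, and Snap25 and Bhlhe40 lie near the dashed line.

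SA was also set against the mean of SA:ANH, ANH and RES in IP, a comparison that shares the SA libraries with the one above. It called 2758 genes (16.5%), 1587 higher in SA (9.52%) and 1171 lower (7.02%). Ribosomal protein genes were higher in 31 of 33 and 45 of 49, with 1 lower (Rpl10a, -0.17 ± 0.04) and medians of 0.29 and 0.29. Rps27 stood at 95.3 ± 7.36 CPM in SA (mean ± SD, n = 6), 104 ± 14.6 in SA:ANH, 49.5 ± 2.39 in ANH, 65.3 ± 3.75 in RES and 46.9 ± 3.01 in NS. Malat1 stood at 929 ± 152, 501 ± 133, 238 ± 44.997, 318 ± 16.9 and 237 ± 14.3 CPM in the same order. For Rps27 the SA and SA:ANH means lay within the spread of the libraries, and for Malat1 they were apart. Meg3 was at 1.24 ± 0.04 and Snhg11 at 1.29 ± 0.05 against those subtypes.

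Of the 14 layer 5 markers 13 were higher in SA than in the mean of the other subtypes and 1 lower (Sulf1), with a median of 0.52. Against NS 5 were higher and 3 lower, with a median of 0.17. Fezf2 stood at 237 ± 13.6, 118 ± 6.47, 139 ± 11.5, 156 ± 6.28 and 169.6 ± 6.76 CPM in SA, SA:ANH, ANH, RES and NS. Ap3b2, which encodes an AP-3 adaptor protein found in neurons, stood at 3255 ± 151, 1889.95 ± 136, 1114 ± 51.8, 2445 ± 78.8 and 2072 ± 77.9 CPM, and in those other subtypes it was higher in IP than in Input by 3.02 on the log2 scale. Egr1 was -0.30 ± 0.04 and Penk -1.05 ± 0.07 against the other subtypes, and Npas4 was 0.36 ± 0.15 (adjusted p = 0.1). Of the 20 oligodendrocyte markers 15 were lower in SA than in the mean of the other subtypes and 0 higher. Mbp stood at 166 ± 7.67, 112 ± 11.5, 430.5 ± 8.14, 610.5 ± 37.6 and 194 ± 12.8 CPM in the same order. For this gene SA was below ANH and RES but above SA:ANH, so the comparison with the mean does not place SA below each subtype.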

How the data were processed

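The authors deposited 1 table of expected counts for 60 libraries, that is, read or fragment numbers per gene estimated by a model. The values themselves showed this unit, with 88.4% of them whole within 1e-06. Per the labels' protocols, RNA was extracted with a Direct-zol kit, libraries were made with SMART-Seq v4 and TruSeq v2 kits and read as pairs of 100 bases. Tools in the submitters' processing notes were TopHat2 2.0.13, Bowtie2 2.2.3 and Trimmomatic 0.32, with the build mm10. How reads were counted, and on which strand, is not given in these sources, and gene positions in the table are not those of mm10, so they are not printed. Reads had no molecular identifiers.

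Expected counts were rounded. edgeR 4.0.16 (R 4.3.3) fitted the 30 IP libraries with 5 groups by its quasi-likelihood test, with TMM factors, filterByExpr at a minimum count of 10 and Benjamini-Hochberg adjustment over all genes tested at 0.05. The common biological coefficient of variation was 23.7%. Every adjusted p is from such a fit. Input was fitted in the same way, and the difference between fractions in a fit of all 60 libraries with 10 groups. CPM and fold changes are from the rounded counts. The tests were tested on simulated data.

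The comparison, members, gene lists and alternatives were chosen with earlier results of these data known, and lists are described by counts and medians. Named genes were the 15 largest rises and 15 largest falls with a mean of at least 10 CPM in the higher group, up to 4 members with the smallest p of each of 44 lists, the 10 smallest p against the other subtypes and between fractions, and Rpl10a, Fos, Fkbp5 and Bdnf. Predicted genes and pseudogenes were left out. Of those, genes with a plain background are described, and other genes say that they were named after their values were seen, and results of a few genes are not reported here. Promoter sequences were matched by symbol to RefSeq on GRCm38.p6. Libraries of a group differed by a chi-square of 9.44 to 16.0 per gene, more than sampling noise. These values do not show whether libraries came from separate animals. Each library counted once in the fits. Alternatives were RLE factors, DESeq2 1.42.0, no filter, the 12 libraries alone, the replicate number as a block, removal of a trend with gene span, leaving out each library, and pseudogene counts added. Removal of a trend with exonic length was added after seeing the data.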

Additional observations from a re-analysis of the deposited data

Results flagged for a closer look

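The SA minus NS difference was unlike in IP and Input in 96 of the 115 genes described. This was by the test of the difference itself at an adjusted p under 0.05, which called 9.05% of the 18938 genes tested. Some of the 115 were chosen for the smallest p in that same test, and most for a call in IP. The count therefore follows in part from the choice of genes. In 47 of the 96 the IP value was the higher and in 49 the lower. The values that follow are the IP log2 fold change minus the Input log2 fold change, and the part of RNA from other cells in them was not tested.

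Genes of protein synthesis had higher IP values, with 0.86 in Rps27, 0.70 in Rps23, 0.62 in Rps19 and 0.56 in Rps24. The large subunit stood at 0.61 in Rpl9, 0.56 in Rpl13 and 0.43 in Rpl23. Factors and host RNAs stood at 0.24 in Eef1a1, 0.32 in Eef1g, 0.47 in Eif2s2 and 0.66 in Gas5, and Eif4ebp2 at -0.54 beside -0.41 in Peg13. Energy and proteasome genes stood at 0.41 in Ndufa6, 0.37 in Ndufb7, 0.28 in Uqcrq, 0.21 in Cox4i1, 0.38 in Atpif1, 0.47 in Mrpl23 and 0.21 in Psmb6. Mitochondrial RNAs stood at 1.61 in mt-Rnr2, 1.17 in mt-Co1, 1.14 in mt-Co2 and 1.18 in mt-Co3. Noncoding RNAs and the imprinted gene beside one of them stood at 2.14 in Malat1, 1.14 in Meg3, 0.87 in Rian, 1.101 in Miat, 1.39 in Snhg11, 1.205 in Kcnq1ot1 and 1.45 in Cdkn1c.

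Genes of the activity and hormone response were lower in IP, at -1.01 in Egr1, -0.43 in Egr3, -0.63 in Egr4, -1.08 in Npas4, -0.69 in Arc, -0.59 in Fos and -1.53 in Nr4a2. Effectors stood at -1.397 in Rasd1, -0.65 in Inhba and -0.35 in Vgf, and steroid receptors and targets at -0.95 in Nr3c2, -0.46 in Nr3c1, -0.56 in Fkbp5 and -0.45 in Sgk1, and the clock gene Npas2 at -0.78. Higher values were 1.01 in Tiparp, 1.06 in Hsd11b1, 0.99 in Rorb and 1.08 in Ptger3. Single genes among the largest falls as ranked above stood at -2.16 in Il16, -2.14 in Lats2, -1.79 in Htr7 and -1.81 in Zbtb20. Wipf3, Slc4a4 and Trpm3, from the same ranking, stood at -1.24, -1.26 and -0.93.

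Receptor genes stood at -0.24 in Gria1, -0.19 in Cnih2, -0.55 in Gsg1l, 0.34 in Cnih3 and -0.39 in Shank1. Channel genes stood at -0.53 in Kcna1, -0.41 in Kcnv1 and 0.25 in Kcnmb4. Genes of release and calcium signalling stood at -0.82 in Cplx2, -0.36 in Dnm1, -0.30 in Slc17a7, -0.51 in Camk2a, -0.69 in Camkk2, -0.48 in Hpca, -0.33 in Olfm1, -0.82 in Nptx1 and -1.02 in Ppp1r1b. The cytoskeleton stood at 0.16 in Stmn1, 0.25 in Stmn2, 0.30 in Stmn3, 0.17 in Tuba1a and 0.45 in Gap43, and the vesicle coat and chaperone genes at 0.71 in Ap3b2 and 0.45 in Hsp90aa1.

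Peptides and layer markers stood at -1.31 in Penk, -0.82 in Sst, 0.74 in Grp and 0.15 in Cck and at 0.50 in Fezf2, -0.48 in Calb1, -0.48 in Lhx2 and -1.46 in Mdga1. Markers of cells outside the pulldown stood at -2.51 in Trf, -0.56 in Mbp, -2.29 in Mog, -1.56 in Gfap and -1.12 in Gad1, and blood at 0.39 in Hba-a1 and 0.57 in Hbb-bs.

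In 16 of 230 groups of 6 IP libraries a library lay further from the others than Dixon's critical value allows, which chance gives in about 1 in 20 groups. In SA replicate 1 this was Rpl13 (299.9 CPM, nearest 368), Eef1g (253 CPM, nearest 280.001), Slc4a4 (8.62 CPM, nearest 5.75), Bdnf (62.7 CPM, nearest 68.2), Cplx2 (263 CPM, nearest 233). In SA replicate 2 this was Egr1 (143 CPM, nearest 169.9), Egr3 (45.7 CPM, nearest 52.4). In SA replicate 4 this was Htr7 (6.08 CPM, nearest 3.18), Fkbp5 (25.1 CPM, nearest 17.7). In SA replicate 6 this was Snap25 (3083 CPM, nearest 2868), Camk2a (834 CPM, nearest 943). In NS replicate 1 this was Sdhb (361 CPM, nearest 407). In NS replicate 3 this was mt-Co3 (18.4 CPM, nearest 15.5), Bdnf (77.2 CPM, nearest 89.2). In NS replicate 5 this was Cdkn1c (8.29 CPM, nearest 10.8). In NS replicate 6 this was Trpm3 (13.98 CPM, nearest 19.3).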

How the results depend on the processing

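The counts of called genes over all genes tested stayed within 1.5 times their values in the report, which those of several lists did not. For SA against NS in IP, 2766 genes were called, 2755 with RLE factors, 3032 with DESeq2, 2367 with no filter, 2619 with the 12 libraries alone, 2594 without the trend with span and 2494 without that with exonic length, which was added after seeing the data. Of these 2616, 2717, 2202, 2425, 2344 and 2281 were among the 2766, all in the same direction. Leaving out 1 library at a time gave 2272 (without NS replicate 1) to 2632 genes, with 1236 to 1498 higher and 1015 to 1206 lower. The median log2 fold change of all genes was 0.0018 to 0.016 over these settings other than single libraries. Of the 115 genes described, Rpl10a turned, from 0.03 to -0.021 without the trend with span and -0.051 without that with exonic length, never past the threshold. Pvt1, Klf10 and Mirg lost their call in at least 1 setting. Of 88 list counts, 3 moved by over 1.5 times with RLE factors, 5 with DESeq2, 9 with no filter, 9 with the 12 libraries alone and 11 with each trend removed, most of them counts of a few genes.

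Same-numbered SA and NS IP libraries did not deviate together (correlations of -0.013 to 0.0035, and 0 of 6 libraries correlated best with their own number), so the numbers were not taken as pairs. Between SA IP and SA Input the correlations were -0.0088 to 0.044 and 4 of 6 libraries correlated best with their own number, and between NS IP and NS Input -0.013 to 0.022 and 1 of 6. The replicate block gave 2855 genes, 1609 higher and 1246 lower, with 2664 of the 2766, and 2857 against the other subtypes, 599 in Input and 1685 between fractions, beside 2758, 515 and 1713. Mirg lost its call (adjusted p = 0.0501), and 3 list counts moved. Reads without molecular identifiers limit precision to counting error and the spread of 6 libraries, and genes near 1 CPM, such as mt-Nd3, were not resolved at this depth.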

Other observations

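Other gene groups held called genes in SA against NS in IP, where 9.39% of all genes rose and 7.2% fell. The glycolysis genes were above both shares, and the other lists held too few called genes, or shares too near those of all genes, to be read as results about the lists. Of 17 glycolysis genes 6 rose (Gpi1, Tpi1, Gapdh, Pgk1, Eno1 and Ldhb) and 4 fell (Hk1, Pfkl, Aldoc and Eno2), with a median log2 fold change of 0.03. Of 24 genes of cholesterol synthesis 4 rose (Fdps, Fdft1, Msmo1 and Tm7sf2) and 1 fell (Hsd17b7), and of 23 genes of the unfolded protein response 0 rose and 2 fell (Calr and Canx), where 5 fell with DESeq2 or without the trend with span, 4 without that with exonic length and 1 with no filter. Of 60 chromatin regulators 3 rose (Hdac11, Chd5 and Chd6) and 5 fell (Kmt2d, Kdm4b, Chd2, Smarca2 and Smarca4). Among 25 neuropeptide receptors 1 fell (Adcyap1r1), among 11 markers of oligodendrocyte precursors 1 rose (Cacng4) and 1 fell (C1ql1), and among 5 markers of fibroblasts and choroid plexus 0 passed.

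Genes whose every library in one group stood at 4 or more times the highest library of the other, with at least 1 CPM in the higher group, were counted after the data were seen. SA against NS in IP gave 0 above and 3 below, which were Gh, Hhip and Scgn. Gh, growth hormone of the pituitary, had 0 counts in all 6 SA libraries and 428 in NS, with 1.99 to 3.80 CPM, so it was at least 138-fold lower with a floor of 3 counts for all 6 SA libraries. Hhip, an inhibitor of Hedgehog signalling, stood at 0 to 0.666 CPM in SA and 4.30 to 6.77 in NS, and Scgn, a calcium-binding protein, at 0 to 0.435 and 3.92 to 6.88. For SA against SA:ANH, ANH and RES the counts were 0 above and 0, 5 and 14 below.

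In Input the same rule gave 0 genes above and 14 below for SA against NS. They were Adipoq, Car3, Ces1d, Cidec, Cox8b, Fabp4, Hp, Pck1 and Ucp1, which are known from fat or liver, the pituitary hormones Gh and Prl, and the immunoglobulin genes Ighg2b, Igkc and Igkv4-72. Fabp4, a fatty acid carrier of fat cells, stood at 27.5 to 29.8 CPM in the 6 NS Input libraries and 0 to 0.114 in SA Input. Ucp1, the uncoupling protein of brown fat, stood at 14.998 to 19.3 CPM in NS and at 0 in SA. Gh stood at 41.3 to 49.5 CPM in NS Input, 5.15 to 8.01 in SA:ANH Input and 0 to 0.637 in SA Input. Pck1 stood at 6.73 to 10.02 CPM in NS Input and at 0 in the Input libraries of the other 4 groups, as did Igkv4-72, a single variable segment of the antibody light chain, at 1.03 to 2.76 CPM. All 6 NS Input libraries were alike in these genes, and the labels do not say that libraries were separate animals.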
